A study of Mus musculus with 4 samples.

Results

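Ace, Mme, Enpep, Anpep, Agt, Ren1 and Agtr1a are 7 genes of the renin-angiotensin system, a peptide hormone cascade that sets blood pressure and salt balance. They were found by symbol in UMI count tables of mouse renal cortex, and all 7 of the 7 listed genes were among the 22078 genes with a UMI (a unique molecular identifier, 1 per captured mRNA molecule) in at least 1 library. In retained cells they held 451 UMIs in all, a summed level of 159 CPM (counts per 1e6 UMIs). The measurement was Drop-seq, in which droplets pair single cells with barcoded beads. The 2 Akita libraries came from C57BL/6-Ins2Akita/J mice of 116 and 119 days, which carry a mutant Ins2 insulin allele and become diabetic. The 2 wild-type libraries came from wild-type counterparts of 45 and 51 days. Age and genotype therefore cannot be told apart. All mice ate standard chow, and 1 kidney of each was minced, sieved and digested with collagenase IV.

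In the cascade, renin, the product of Ren1, cuts angiotensinogen, the product of Agt, to angiotensin I. Ace, angiotensin-converting enzyme, turns angiotensin I into angiotensin II, which acts on the type 1 receptor encoded by Agtr1a. Enpep (aminopeptidase A), Anpep (aminopeptidase N) and Mme (neprilysin) are membrane peptidases that trim or degrade these peptides, and all of them are known in the proximal tubule brush border. Renin is made by juxtaglomerular cells in the wall of the afferent arteriole.

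The RefSeq promoter table (GRCm38.p6, 250 bases before to 50 after a gene's start) held 6 of the 7 genes; Agtr1a is named only. Sequences of 4 genes are shown, the hormone precursor and its protease first and a pair of membrane peptidases after them, since their start regions differ in composition. They are written 5′ to 3′ on the gene's strand. Capitals mark TATAAA, the letters of a TATA box, and GGGCGG, those of a GC box, searched on both strands (a match on the other strand reads TTTATA or CCGCCC).
Agt, chr8:124569657-124569956, minus strand: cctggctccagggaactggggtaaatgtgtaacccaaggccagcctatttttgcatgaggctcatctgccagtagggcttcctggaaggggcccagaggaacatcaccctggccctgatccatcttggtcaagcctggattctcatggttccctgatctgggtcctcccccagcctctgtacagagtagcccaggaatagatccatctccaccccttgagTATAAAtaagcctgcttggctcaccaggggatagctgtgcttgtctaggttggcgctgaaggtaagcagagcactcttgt
Ren1, chr1:133350424-133350723, plus strand: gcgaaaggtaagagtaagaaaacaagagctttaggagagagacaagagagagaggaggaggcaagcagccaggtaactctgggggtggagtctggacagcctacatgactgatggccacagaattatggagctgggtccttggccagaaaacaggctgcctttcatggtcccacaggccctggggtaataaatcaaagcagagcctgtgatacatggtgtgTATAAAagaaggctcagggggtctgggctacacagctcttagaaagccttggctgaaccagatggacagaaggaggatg
Ace, chr11:105967698-105967997, plus strand: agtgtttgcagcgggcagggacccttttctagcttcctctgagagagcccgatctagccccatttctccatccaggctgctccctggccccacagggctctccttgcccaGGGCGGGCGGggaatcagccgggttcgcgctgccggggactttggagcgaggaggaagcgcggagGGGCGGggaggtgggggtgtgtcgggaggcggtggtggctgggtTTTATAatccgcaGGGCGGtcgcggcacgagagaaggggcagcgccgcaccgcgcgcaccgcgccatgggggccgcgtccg
Anpep, chr7:79848161-79848460, minus strand: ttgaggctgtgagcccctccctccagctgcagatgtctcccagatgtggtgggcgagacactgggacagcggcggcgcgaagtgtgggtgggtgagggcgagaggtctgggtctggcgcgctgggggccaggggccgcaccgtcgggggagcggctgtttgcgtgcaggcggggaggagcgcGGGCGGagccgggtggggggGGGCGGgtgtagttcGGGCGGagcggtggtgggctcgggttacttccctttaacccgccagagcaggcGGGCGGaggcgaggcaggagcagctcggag
TATAAA began 30 bases before the start in Agt and 29 in Ren1, neither of which held GGGCGG. Ace held 4 GGGCGG matches, a pair of them overlapping, and TTTATA 31 bases before the start. Anpep held 4 GGGCGG matches and no TATAAA. A second, internal Ace start held neither motif. Enpep held 2 TTTATA matches and no GGGCGG, and each of 3 listed Mme starts held 1 or 2 GGGCGG matches and no TATAAA. Of all 32851 promoters in the table, 13.6% held TATAAA and 35.7% held GGGCGG. These matches are descriptions of letters and not sites of binding.

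On GRCm38, the genes lie at chr11:105967945-105989964 (Ace, ENSMUSG00000020681), chr3:63241537-63386030 (Mme, ENSMUSG00000027820), chr3:129269175-129332720 (Enpep, ENSMUSG00000028024) and chr7:79821803-79861059 (Anpep, ENSMUSG00000039062). Agt (ENSMUSG00000031980) lies at chr8:124556534-124569706, Ren1 (ENSMUSG00000070645) at chr1:133350510-133360325 and Agtr1a (ENSMUSG00000049115) at chr13:30336441-30382867. Ace overlaps the antisense gene Gm11651, Enpep the pseudogene Gm42628, Anpep the unclassified Gm44974 and Agtr1a the intronic transcript Gm48161. Whether counting used the strand is not given in the sources used here, so values of these 4 genes may hold reads of the overlapping ones.

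The libraries held 1016719 and 1200209 UMIs in Akita and 1303453 and 1115055 in wild type. After filtering, 311 and 600 Akita cells and 564 and 441 wild-type cells remained, with medians between 746.5 and 835 UMIs per cell. Akita replicate 2 and wild-type replicate 1 shared 884 cell barcodes, against 3 or 4 for every other pair of libraries. Of the retained cells, 73% in Akita replicate 2 and 80.5% in wild-type replicate 1 carried a shared barcode. Of the members' UMIs, 113 of 125 in Akita replicate 2 and 111 of 117 in wild-type replicate 1 lay in shared barcodes. This was near the share of all UMIs. Of all retained UMIs, only 87524 of 755603 in Akita replicate 2 and 68731 of 812747 in wild-type replicate 1 lay outside shared barcodes. In 54 cases the same barcode held a UMI of the same member in both files. A clustering set to 2 groups (k-means) split the shared barcodes by the ratio of their UMIs in Akita replicate 2 to those in wild-type replicate 1. The medians of the sets were 1.33 and 0.546. Such a split always returns 2 sets, so it does not show that the ratios form separate groups. Results are also given with shared barcodes counted once, each in 1 file according to its set. That the ratio tells a barcode's file is an assumption.

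Mme was far higher in intercalated-like cells than in any other tubule class, while Ace, Enpep, Anpep, Agt and Agtr1a each had over 90% of their UMIs in proximal tubule-like cells, which held 78.7% of all UMIs. Clusters were named from marker genes, with the 7 members left out of the clustering. Proximal tubule-like cells were 1468 of 1916, loop of Henle (thick ascending limb)-like cells 167, intercalated-like cells 110, distal convoluted tubule-like cells 88, connecting tubule-like cells 70 and macrophage or dendritic-like cells 13. Levels are CPM relative to all UMIs of the class, and the class levels carry no test.

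Ace had 57 of 58 UMIs in proximal tubule-like cells. Its level there was 11.3 and 36.7 CPM in the Akita libraries, against 24.4 and 27.0 CPM in the wild-type libraries. Akita replicate 1 was the lowest and Akita replicate 2 the highest, so the groups overlapped. No Ace UMI was seen in 167 loop of Henle-like cells, which allows a share of cells with a UMI of up to 1.80%, at a median depth of 863 UMIs per cell. In proximal tubule-like cells, 53 of 1468 cells had one, 3.61% (exact binomial 95% interval 2.72% to 4.70%), at a median depth of 793 UMIs. Distal convoluted and connecting tubule-like cells had none either, but they held only 3.06% and 1.97% of all UMIs. Their 0 counts do not show a lower Ace level than in proximal tubule-like cells. In intercalated-like cells, 1 cell had 1 UMI.

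Enpep, which removes an acidic residue from the amino end of angiotensin II, had 84 of 92 UMIs in proximal tubule-like cells, at 60.9 and 40.2 CPM in Akita libraries and 28.9 and 27.0 CPM in wild-type libraries. Both Akita libraries lay above both wild-type libraries, as in 11.6% of the genes tested in these cells. The other 8 Enpep UMIs were 3 in intercalated-like, 3 in connecting tubule-like and 2 in loop of Henle-like cells. By mean level over the libraries, connecting tubule-like cells were at 53.1 CPM (range 0 to 145) and intercalated-like cells at 31.1 CPM. Proximal tubule-like cells were at 39.2 CPM and loop of Henle-like cells at 6.38 CPM. On 3 UMIs each, the connecting tubule-like and intercalated-like levels are not shown to be below the proximal tubule-like one. Anpep, which acts on the next peptide of the chain, had 64 of 69 UMIs in proximal tubule-like cells. It stood at 36.1 and 26.2 CPM in Akita libraries, against 33.5 and 19.8 CPM in wild-type libraries, and the groups overlapped. The other 5 Anpep UMIs were in intercalated-like cells, 41.4 CPM (counting interval 13.5 to 96.7). None was seen in loop of Henle, distal convoluted or connecting tubule-like cells. The last 2 classes held few UMIs, so their 0 counts do not show a lower Anpep level than in proximal tubule-like cells.

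Agt, the precursor of all angiotensins, had 43 of 46 UMIs in proximal tubule-like cells. Its level was 13.5 and 36.7 CPM in the Akita libraries, against 21.3 and 3.59 CPM in the wild-type libraries. The wild-type libraries differed from each other by more than the group means did, and the groups overlapped. Agtr1a, the receptor gene, had 31 of 33 UMIs in the same cells. Its level there was 20.3 and 10.5 CPM in the Akita libraries, against 13.7 and 12.6 CPM in the wild-type libraries, again with overlap.

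Mme had 60 of its 144 UMIs in intercalated-like cells, the acid-base transporting cells of the connecting tubule and collecting duct, which were 5.74% of cells and held 4.26% of all UMIs. Another 60 lay in proximal tubule-like cells. In intercalated-like cells its level was 1434 and 355 CPM in the Akita libraries, against 340 and 364 CPM in the wild-type libraries. In proximal tubule-like cells it was 33.8 and 28.0 CPM in the Akita libraries, against 22.9 and 25.2 CPM in the wild-type libraries. The lowest intercalated-like value exceeded the highest proximal tubule-like value, and within libraries the ratio ran from 12.7 to 42.4.

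Akita replicate 1 stood apart, with 23 Mme UMIs in only 8 intercalated-like cells, of which 1 cell of 5212 UMIs gave 9. Without that cell the level in that library was 1293 CPM. With shared barcodes counted once, the level was 547 CPM in intercalated-like cells and 26.6 CPM in proximal tubule-like cells, a ratio of 20.6. Only 1 intercalated-like cell of wild-type replicate 1 remained in that setting, since all 30 carried shared barcodes. Leaving out Akita replicate 1 as well gave 358 CPM (counting interval 236 to 521) in intercalated-like and 24.2 CPM (16.7 to 34.0) in proximal tubule-like cells, a ratio of 14.8.

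A UMI of Mme was present in 25 of 110 intercalated-like cells, 22.7% (exact binomial 95% interval 15.3% to 31.7%), at a median of 787.5 UMIs per cell. The share was 3.61% in proximal tubule-like cells and 10.2% in loop of Henle-like cells. None of the 70 connecting tubule-like cells had one, which allows a share of up to 4.29%. After thinning every cell to 500 UMIs and leaving out shallower ones, the shares were 13.3% of 90 intercalated-like cells, 1.28% of 1096 proximal tubule-like cells and 1.57% of 127 loop of Henle-like cells. Intercalated-like cells kept the highest share. In loop of Henle-like cells the level was 40.5 and 22.5 CPM in the Akita libraries, against 60.1 and 106 CPM in the wild-type libraries, on 3 and 2 UMIs in Akita and 5 and 9 in wild type.

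**Figure D1:**
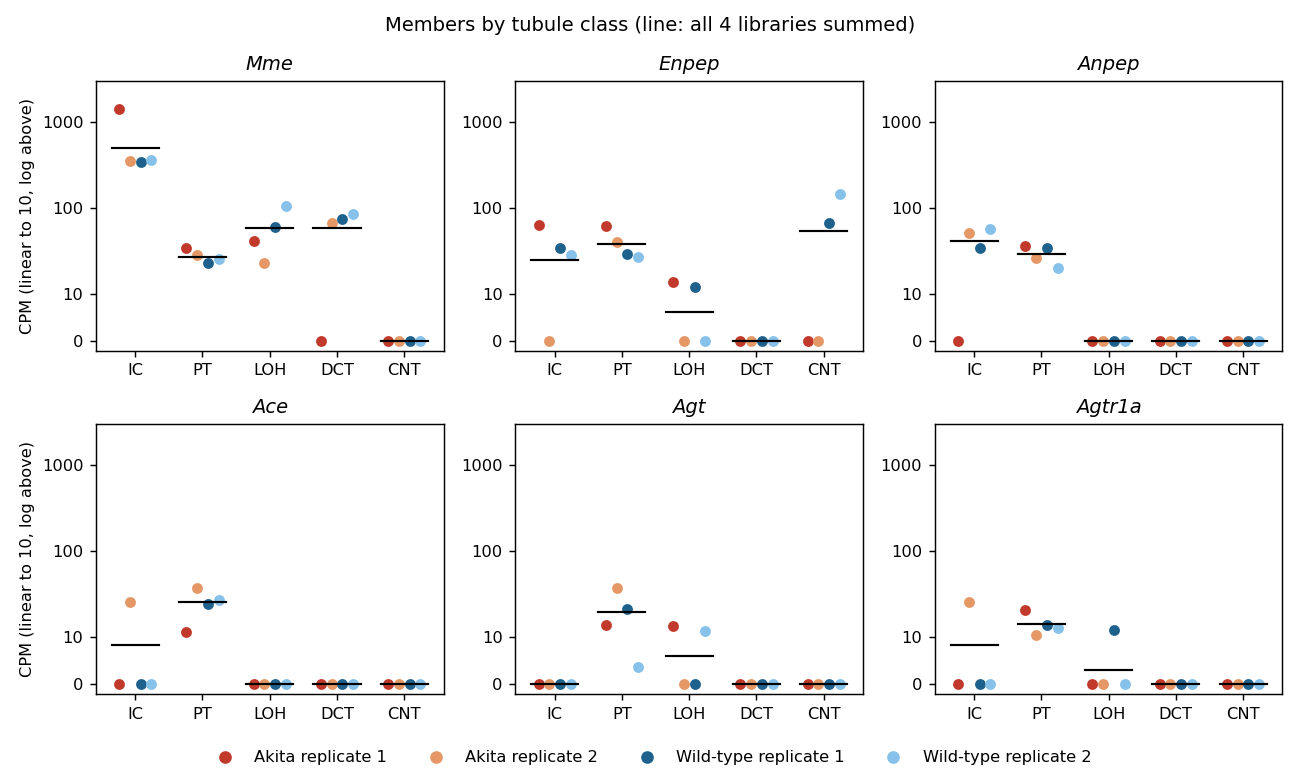
Level of 6 members in 5 tubule classes (IC intercalated-like, PT proximal tubule-like, LOH loop of Henle-like, DCT distal convoluted tubule-like, CNT connecting tubule-like), in CPM on an axis that is linear to 10 and logarithmic above. Each point is 1 library and each line the 4 libraries summed. All Mme points of IC, 340 to 1434 CPM, lie above all PT points, 22.9 to 33.8 CPM. Ace has no UMI in LOH, DCT or CNT, of which DCT and CNT held only 3.06% and 1.97% of all UMIs.

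Intercalated cells come in a type with the anion exchanger Slc4a1 and the water channel Aqp6, and a type with the exchangers Slc26a4 (pendrin) and Slc4a9. Sorting the 110 cells by UMIs of these pairs, a split chosen after the values were seen, put 21 Mme UMIs in 17 cells with UMIs of the first pair alone (1196 CPM). The 62 cells with UMIs of the second pair alone had 6 Mme UMIs (84.8 CPM). Median depth was 781 UMIs per cell in the first set and 895 in the second, and the part of depth was not tested. The 10 cells with UMIs of both pairs had 29 Mme UMIs (1389 CPM) at a median depth of 1434 UMIs, and whether such barcodes held more than 1 cell was not tested. With shared barcodes counted once the first set stood at 1158 CPM and the second at 78.2 CPM. By library, the first set had 9 and 6 Mme UMIs in Akita (3 and 4 cells), against 5 and 1 in wild type (5 and 5 cells). The second set had 0 and 1 in Akita (3 and 22 cells), against 2 and 3 in wild type (18 and 19 cells). Without Akita replicate 1, whose 2 cells with both pairs held 14 Mme UMIs, the first set was at 971 CPM (counting interval 502 to 1697) and the second at 90.3 CPM (33.1 to 197). In wild-type replicate 2 alone they were at 224 CPM (5.67 to 1249) and 154 CPM (31.7 to 450), intervals that overlap.

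**Figure D2:**
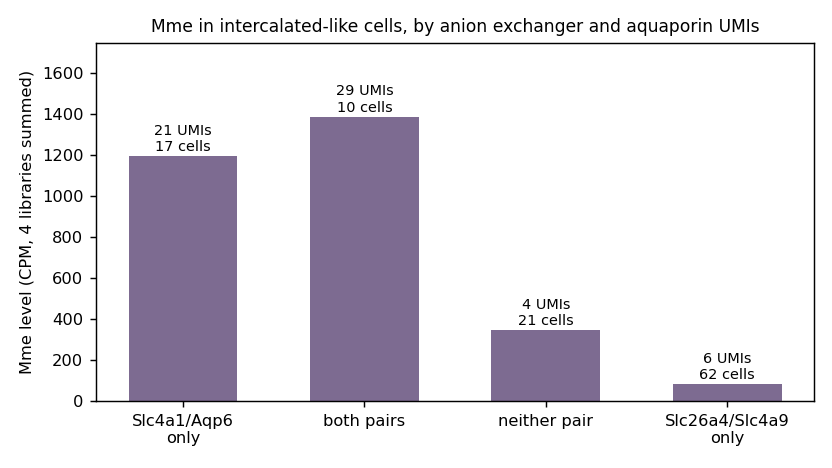
Level of Mme (CPM, 4 libraries summed, bars from 0) in the 110 intercalated-like cells, by whether a cell held UMIs of Slc4a1 or Aqp6 alone, of both pairs, of neither, or of Slc26a4 or Slc4a9 alone. The bars stand at 1196, 1389, 349 and 84.8 CPM, with Mme UMIs and cells written above each.

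Over 11 clusters of at least 30 cells, the genes of at least 200 UMIs whose level on the log2(CPM + 10) scale ran most like that of Mme were Emc4 (Pearson r = 0.87), Snrpe (0.86) and Spcs2 (0.84) among 2052 genes ranked. Without the intercalated-like cluster these r were 0.77, 0.79 and 0.69 over 10 clusters. Clusters share libraries and differ in depth, and no p is given. The other members had under 100 UMIs and were not ranked.

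Within the proximal tubule, the level of Ace summed over libraries was higher in S3-like than in S1-like cells, but after shared barcodes were counted once, 1 library carried that difference. S3-like cells (442), the straight late part of the tubule by markers such as Slc7a13 and Slc22a7, had 25 Ace UMIs, 67.5 CPM (counting interval 43.7 to 99.7). These cells were above S1-like cells in 11 of 13 S3 markers but also in 3 of 5 S2 markers, and no cluster took an S2 name. S1-like cells (423), the early part by Slc5a12, Slc7a8 and other markers, had 3, at 7.46 CPM (1.54 to 21.8). The remaining proximal tubule-like cells stayed without a segment name. Among them, 1 cluster of 26 cells had loop of Henle and distal tubule markers, and no proximal tubule marker, in its top 50 genes. These genes were ranked against the other proximal tubule-like cells, and the cluster held 2 Mme UMIs and 1 Enpep UMI. Also without a segment name, 1 deep cluster of 258 cells had a median of 3487 UMIs per cell. It held 28 of the 57 Ace UMIs and 56 of the 84 Enpep UMIs. It also held a large part of all proximal tubule UMIs. With shared barcodes counted once it had 991821, against 327240 in S1-like, 285486 in S3-like and 176164 and 25392 in the other unnamed clusters. Its Ace level in that setting was 25.2 CPM (16.3 to 37.2).

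By library, Ace in S3-like cells stood at 29.4 and 88.1 CPM in the Akita libraries, against 98.1 and 20.4 CPM in the wild-type libraries, on 1, 12, 10 and 2 UMIs. The libraries that share barcodes were the high ones. In S1-like cells it was 0 and 9.98 CPM in the Akita libraries, against 5.79 and 19.2 CPM in the wild-type libraries, with at most 1 UMI in each. With shared barcodes counted once, all 10 of the S3-like UMIs of wild-type replicate 1 were gone and the level over the 4 libraries was 52.5 CPM in S3-like and 9.17 CPM in S1-like cells. Leaving out Akita replicate 2 as well left 3 UMIs in S3-like cells, 18.3 CPM (3.78 to 53.6), and 2 in S1-like cells, 7.18 CPM (0.869 to 25.9), intervals that overlap.

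Agt had 11 UMIs in S3-like cells, 7 of them in Akita replicate 2 and 3 in wild-type replicate 1. Its level was 29.7 CPM (counting interval 14.8 to 53.2) there, with 2 UMIs in S1-like cells, 4.97 CPM (0.602 to 18.0). With shared barcodes counted once and without Akita replicate 2, 1 UMI was left in each segment. Agtr1a was at 8.10 CPM in S3-like and 17.4 CPM in S1-like cells, with 3 and 7 UMIs and overlapping intervals. Enpep, at 24.3 CPM in S3-like and 29.8 CPM in S1-like cells, and Anpep, at 21.6 and 24.9 CPM, differed between the segments by less than their counting error. Mme was at 35.1 CPM (18.7 to 60.1) in S3-like and 12.4 CPM (4.04 to 29.0) in S1-like cells.

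**Figure D3:**
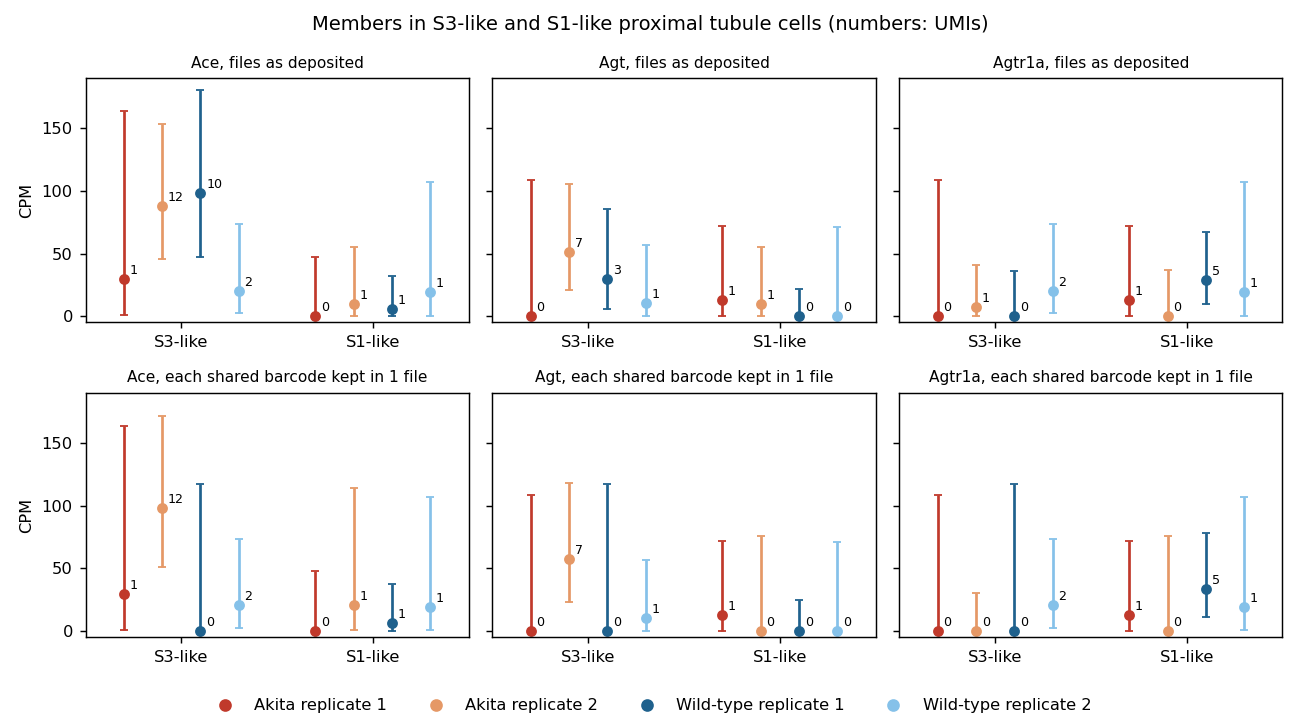
Level (CPM) of Ace, Agt and Agtr1a in S3-like and S1-like proximal tubule cells by library, with 95% counting intervals and UMIs beside the points, from the files as deposited (top) and with shared barcodes counted once (bottom). The S3-like Ace point of wild-type replicate 1 falls to 0 in the bottom row, while that of Akita replicate 2 stays at 98.4 CPM on 12 UMIs.

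Ren1 was seen in retained cells of 1 library. Over every deposited barcode it had 0 and 1 UMIs in Akita, against 1 and 13 in wild type. The 1 of wild-type replicate 1 and 1 of the 13 lay in strings of 12318 and 12607 UMIs that were not taken as cell barcodes. Retained cells of both Akita libraries had 0 UMIs, against 0 and 9 in wild type, where wild-type replicate 2 stood at 12.8 CPM (counting interval 5.85 to 24.3). A count of 0 allows up to 5.38 and 3.97 CPM in the Akita libraries and 3.69 CPM in wild-type replicate 1. Of the 9 UMIs, 5 came from 1 barcode of 364 UMIs that clustered with the loop of Henle-like cells. That barcode held no UMI of 8 juxtaglomerular, pericyte or smooth muscle markers, nor of Umod, the defining thick ascending limb gene. The other 4 came from 4 barcodes with 1 UMI each, of which 3 had 13723, 17706 and 18297 UMIs. The 8 markers summed to 17.9 and 14.6 CPM in Akita, against 23.4 and 15.6 CPM in wild type, with 2 to 4 of them detected in a library, so no cluster of these cells was available.

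The comparison of Akita with wild-type mice asked whether these genes differ in the diabetic cortex. UMIs were summed per library and fitted with edgeR's quasi-likelihood test across all genes. No gene of 7169 was called in all retained cells at a Benjamini-Hochberg adjusted p under 0.05 (0%), while 68 genes had unadjusted p-values under 0.05. The other tools, DESeq2 and limma-voom, called 0 from the same sums. None of 6159 was called in proximal tubule-like cells (0%; 58 at the unadjusted level; 0 by either other tool). No member was among the called genes, therefore, in either set of cells. Of the 7 members, 5 passed the filter on low counts.

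Enpep was at 41.2 ± 15.2 CPM in Akita, against 26.3 ± 1.06 CPM in wild-type libraries over all retained cells (SD, n = 2 each). Its values were 52.0 and 30.4 CPM in Akita, against 27.1 and 25.6 CPM in wild type, without overlap, and its log2 fold change was 0.60 ± 0.38 (SE, edgeR adjusted p = 1.00). It was 0.25 without Akita replicate 1 and 0.90 without Akita replicate 2. The groups overlapped over all retained cells with shared barcodes counted once, at 52.0 and 29.8 CPM in Akita, against 31.3 and 25.6 CPM in wild type, and also with shared barcodes left out. In proximal tubule-like cells the log2 fold change was 0.82 ± 0.38, with an unadjusted p of 0.0478 and an adjusted p of 1.00 in edgeR. In these cells the value lay between 0.57 and 1.03 when single libraries were left out. Counted once, the shared barcodes gave 0.81 ± 0.41 in proximal tubule-like cells, where the groups did not overlap, as in 12.9% of the genes tested in that setting. Over all retained cells both Akita libraries lay above both wild-type libraries in 12.6% of the genes tested, and in proximal tubule-like cells in 11.6%. Among the tested members this held for 1 of 5 (Enpep) and for 2 of 5 (Enpep and Mme).

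Mme over all retained cells was at 73.5 and 45.0 CPM in Akita, against 39.4 and 52.6 CPM in wild type, where the groups overlapped, with a log2 fold change of 0.34 ± 0.32 (edgeR adjusted p = 1.00). It was 0.02 without Akita replicate 1 and between 0.18 and 0.61 without each other library. With shared barcodes counted once it was 0.94 ± 0.45, at an unadjusted p of 0.0603 in edgeR. In that setting 33 of 432 retained cells of Akita replicate 2 were intercalated-like, but only 1 of 308 of wild-type replicate 1. Wild-type replicate 1 was left with 7 Mme UMIs there. From the files as deposited, the share of intercalated-like cells, which raises or lowers the Mme sum, was 2.57% and 5.67% in Akita. In wild type it was 5.32% and 8.62%. In proximal tubule-like cells the log2 fold change was 0.35 ± 0.43 (edgeR adjusted p = 1.00). It was 1.04 ± 0.55 in these cells with shared barcodes counted once, where wild-type replicate 1 was left with 4 Mme UMIs, and the unadjusted p was 0.0842 in edgeR.

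Agt over all retained cells was at 12.5 and 29.1 CPM in Akita, against 17.2 and 4.26 CPM in wild type, with a log2 fold change of 0.95 ± 0.63 (edgeR adjusted p = 1.00). The groups overlapped. Leaving out Akita replicate 2 gave 0.10 and leaving out wild-type replicate 1 gave 2.34, so either library moved it by over 1.5 times. Counted once, the shared barcodes left Agt under the filter on low counts.

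Ace over all retained cells was at 8.96 and 29.1 CPM in Akita, against 19.7 and 21.3 CPM in wild type, with a log2 fold change of −0.03 ± 0.53 (edgeR adjusted p = 1.00). Its sign turned with the libraries, from −1.24 without Akita replicate 2 to 0.55 without Akita replicate 1, and it was 0.60 with shared barcodes counted once. Anpep was at 28.7 and 22.5 CPM in Akita, against 28.3 and 18.5 CPM in wild type, with a log2 fold change of 0.09 ± 0.43 (edgeR adjusted p = 1.00). Both genes overlapped between the groups.

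Ren1 and Agtr1a did not pass the filter and were compared by an exact two-sided permutation test of mean CPM, whose smallest possible p with 2 against 2 libraries is 0.3333. Agtr1a averaged 12.7 ± 4.86 CPM in Akita, against 11.1 ± 1.67 CPM in wild-type libraries (SD, n = 2 each, exact permutation p = 1.00). Ren1 averaged 0 CPM in Akita, against 6.39 ± 9.04 CPM in wild-type libraries (exact permutation p = 1.00), and wild-type replicate 2 gave the whole difference.

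**Figure D4:**
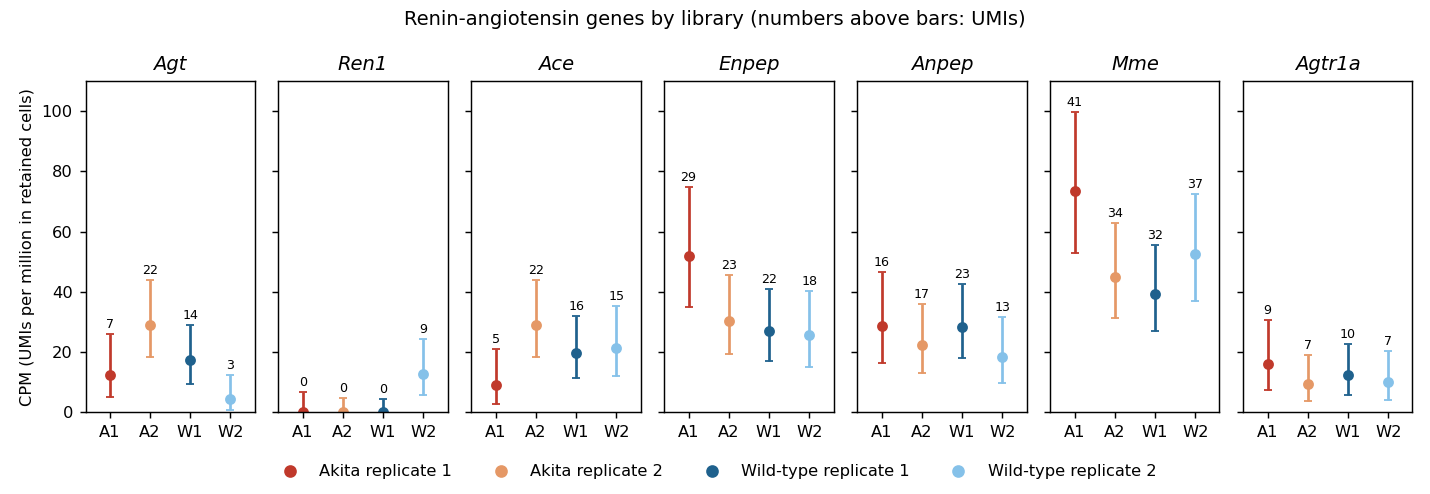
Level (CPM in retained cells) of the 7 members in the 2 Akita libraries (A1, A2) and the 2 wild-type libraries (W1, W2), with 95% counting intervals and UMIs above. From the files as deposited, Enpep is the 1 member whose Akita points, 52.0 and 30.4 CPM, both lie above its wild-type points, 27.1 and 25.6 CPM, with overlapping intervals, and Ren1 has UMIs in W2 alone. Of all genes tested, 12.6% had both Akita libraries above both wild-type libraries.

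**Figure D5:**
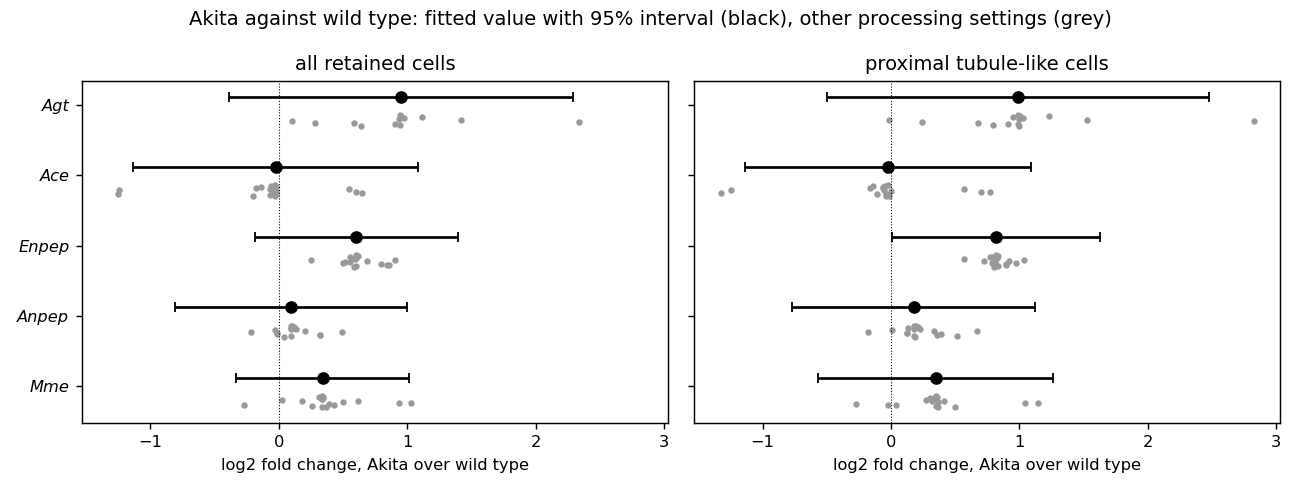
Log2 fold change of Akita over wild type for the 5 tested members, with the edgeR 95% interval in black and the value under each other processing setting in grey. All grey Enpep points lie above 0, between 0.25 and 1.03, while those of Ace run from −1.32 to 0.77 and cross 0.

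Of 20 other renin-angiotensin genes, 9 passed the filter over all retained cells and 0 were called in either direction by edgeR. Their median log2 fold change was 0.06, beside 0.00 over all genes tested, and 0.04 over 8 tested genes with shared barcodes counted once. Those with the highest mean level included Agtrap, an adaptor of the type 1 receptor, Atp6ap2, the prorenin receptor, and Ctsa, a lysosomal carboxypeptidase. Agtrap was at 111 and 135 CPM in Akita, against 130 and 189 CPM in wild type, and Atp6ap2 at 96.8 and 96.6 CPM in Akita, against 89.8 and 118 CPM in wild type. Ctsa was at 61.0 and 74.1 CPM in Akita, against 65.2 and 65.3 CPM in wild type, and all 3 overlapped between the groups.

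By class, Atp6ap2, which is also a part of the vacuolar proton pump, stood at 622 CPM in intercalated-like and 81.2 CPM in proximal tubule-like cells.

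Of 9 other brush border peptidases, 8 passed the filter and 0 were called by edgeR. Their median log2 fold change was 0.15 beside 0.00 over all genes. With shared barcodes counted once its sign turned, to −0.30 over 7 tested genes. Those with the highest level included Cltrn, which brings amino acid transporters to the membrane, Ggt1, which splits glutathione, and Mep1a, a meprin subunit. Cltrn was at 1090 and 1125 CPM in Akita, against 1275 and 1308 CPM in wild type, both Akita libraries being lower, as in 11% of the genes tested. Mep1a was at 520 and 502 CPM in Akita, against 469 and 418 CPM in wild type, both Akita libraries being higher, as in 12.6% of the genes tested. Ggt1, at 737 and 532 CPM in Akita, against 522 and 635 CPM in wild type, overlapped.

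Of 11 genes of the kinin and aldosterone pathways, 5 passed the filter and 0 were called by edgeR. Their median log2 fold change was 0.33 beside 0.00 over all genes, and 0.77 over 4 tested genes with shared barcodes counted once. Klk1, tissue kallikrein, was at 1268 and 3434 CPM in Akita, against 2202 and 2670 CPM in wild type. Kng2, a kininogen, was at 407 and 296 CPM in Akita, against 258 and 297 CPM in wild type, and both genes overlapped. Scnn1a, a subunit of the epithelial sodium channel, was at 50.2 and 31.8 CPM in Akita, against 18.5 and 24.1 CPM in wild type. Both Akita libraries were higher, as in 12.6% of the genes tested. Sgk1, a kinase induced by aldosterone, was at 37.6 and 14.6 CPM in Akita, against 23.4 and 18.5 CPM in wild type, with overlap. In proximal tubule-like cells 8, 8 and 3 genes of the 3 lists passed the filter and 0 were called.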

How the data were processed

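Per the file headers, the authors' tables list raw UMI counts by gene and cell barcode. Tools in the submitters' processing notes are STAR 2.5.2b, featureCounts 1.6.0 and UMI-tools 0.5.3, with the build GRCm38; the counter's strand setting is not given in the sources used here. Members and gene lists were chosen with earlier results of these data known. Strings with an undetermined base or almost all of 1 base, 4 per library, were taken not to be cell barcodes and were left out. Of the rest, barcodes with at least 200 genes and at most 50% mitochondrial UMIs were retained, and no doublet caller was run. Cells were clustered with scanpy 1.11.5 and leidenalg 0.10.2 (2000 variable genes, 30 components, Leiden resolution 1) without the members, mitochondrial and haemoglobin genes, the last left out after a cluster took an erythroid name. Clusters were named by at least 3 markers among the top 50 genes. Proximal tubule-like cells were split at resolution 0.7, chosen after seeing which resolutions carried segment markers. Sums per library were tested with edgeR 4.0.16 (TMM, filterByExpr). DESeq2 1.42.0, limma 3.58.1 and other settings were alternatives. The edgeR code was run on simulated independent libraries, with changes planted only in genes of higher counts than Ace, Enpep, Anpep and Agt had. That run does not cover these members or shared barcodes. Named list genes are the 4 with the highest mean CPM in each list, except 1 that is not reported here. Counting intervals are exact Poisson 95% intervals, and these, the binomial ones and the limits for a count of 0 (3 counts) cover counting error only. The labels do not say more on separate preparation, so p-values measure the spread between these libraries. The tests take the libraries as independent, which Akita replicate 2 and wild-type replicate 1, with 884 shared barcodes, may not be. Ages of 45 to 119 days stand beside a stated housing time of 24 weeks.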

Additional observations from a re-analysis of the deposited data

How the results depend on the processing

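Counts of called genes were 0 in edgeR for both sets of cells, and were 0 with RLE factors, DESeq2, limma-voom, stricter cell filters, mitochondrial genes left out, shared barcodes left out, every deposited barcode and other Leiden resolutions. They were 1 and 1 without a filter on low counts (all retained cells, then proximal tubule-like cells), 6 and 5 with the opposite assignment of shared barcodes, an alternative added after seeing the data, and 0 and 11 with shared barcodes counted once and the replicate block. Leaving out single libraries gave 0 to 23 and 0 to 14; 1 of these calls, without wild-type replicate 1, was a listed gene, Hsd11b2 (named after its values were seen), and none was a member. The replicate block alone gave 0 calls in both (75 and 52 unadjusted). Deviations of same-numbered libraries correlated at −0.246 and −0.233, and with 2 libraries per group the crossed ones mirror these by construction. A crossed block was added, with 0 calls in both (111 and 105 unadjusted). It paired Akita replicate 2 with wild-type replicate 1, the libraries that share barcodes. Whether shared barcodes or a pairing of preparations gave the correlation was not tested.

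Enpep kept its sign in 35 of 35 alternatives over both sets of cells. Ace turned in 6: with shared barcodes counted once (0.60 and 0.70), with the block added (0.65 and 0.77), and without Akita replicate 1 (0.55 and 0.57; range without single libraries −1.24 to 0.55 and −1.24 to 0.57). Anpep turned over all retained cells with shared barcodes counted once (−0.017), with the block added (−0.012), and without Akita replicate 1 or wild-type replicate 2 (range −0.22 to 0.49; −0.18 to 0.67 in proximal tubule-like cells). Mme turned with the opposite assignment (−0.27 in both) and at most 25% mitochondrial UMIs (−0.023, proximal tubule-like cells). Agt ranged from −0.019 to 2.82 without single libraries in proximal tubule-like cells. The Agtr1a difference in mean CPM ran from −1.86 to 5.01 without single libraries and was −3.49 with shared barcodes counted once. The Ren1 difference ran from −12.8 to 0. The cause of these changes was not tested.

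The Mme level in intercalated-like cells lay between 354 and 566 CPM without single libraries, the Ace level in S3-like cells between 55.6 and 84.5 CPM. Thinning to 500 UMIs lowered the share of intercalated-like cells with an Mme UMI from 22.7% to 13.3%. At Leiden resolution 0.5 a large group of proximal tubule cells took a macrophage name from few markers. The members had 9 to 144 UMIs each in retained cells.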

Other observations

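Between 96 and 108 retained cells per library had a barcode 1 base away from another retained barcode of the same library.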
